A study of Mus musculus with 6 samples.

Results

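The forkhead factors FoxO1, FoxO3 and FoxO4 and 7 ubiquitin ligase genes of striated muscle were examined in gastrocnemius (GAS) muscle. The 10 genes, chosen by symbol, were all found among the 24532 genes of the deposited table, and all 10 passed the filter on low counts that left 13801 genes for testing. RNA was sequenced from 3 mice labelled WT, which carried the floxed allele without Cre (*Sirt6* flox/flox), and from 3 labelled *Sirt6* KO (*Myl1-Cre*; *Sirt6* flox/flox), with 1 library per animal. The second group is called KO-labelled below, because *Sirt6* itself went against the labels, and its libraries are KO 1, 2 and 3. All 6 were C57BL/6 males of 20 weeks, and both groups therefore carried the floxed *Sirt6* allele. The *Myl1* promoter that drives Cre is active mainly in mature type II fibers, so other cells of the muscle keep *Sirt6*, and no group carried Cre without the floxed allele. The comparison asks how the mRNA of these factors differs between the 2 genotypes.

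FoxO proteins are transcription factors that Akt phosphorylates and keeps out of the nucleus when insulin or IGF-1 is present. In fasting, denervation or glucocorticoid excess they enter the nucleus of the muscle fiber and switch on genes of protein breakdown, the atrophy program. Its best known ligases are MuRF1 (*Trim63*), a RING-finger protein of the sarcomere, and atrogin-1 (*Fbxo32*), an F-box protein that brings substrates to the SCF ligase complex (Skp1, Cul1 and an F-box protein). MuRF3 (*Trim54*) and MuRF2 (*Trim55*) are paralogs of MuRF1 that bind microtubules and the sarcomere, whereas *Fbxo30* (MUSA1), *Fbxo21* (SMART) and *Fbxo31* encode further F-box proteins that have been tied to muscle loss.

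The genes turned out to be split. *Trim63*, *Foxo1* and *Fbxo30* were lower and *Fbxo21* was higher in the KO-labelled libraries, at an adjusted p under 0.05 in edgeR's quasi-likelihood test. Thus 3 of 10 genes fell, where 8.39% of all genes tested fell, and 1 of 10 rose, where 7.85% rose. In 7 of the 10 genes the groups did not overlap (4 lower, 3 higher), against 19.6% of all genes lower, 20.3% higher and 40.0% in either direction. The median log2 fold change over the 10 genes was -0.10, against -0.02 over all genes tested. Past a 2-fold change with an unadjusted p under 0.05, 3 of the 10 genes were lower and 0 higher, against 4.69% and 3.14% of all genes.

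The libraries held between 44845763 and 63016899 counts, with the shallowest being WT 1 and WT 2, and the 10 genes together took between 0.212% and 0.556% of them. *Sirt6*, the deleted gene, went against the labels. It was at 2.77, 2.23 and 2.88 CPM (counts relative to library size, with TMM factors) in WT 1, 2 and 3 and at 7.81, 7.44 and 6.68 in the KO-labelled libraries 1, 2 and 3, or 1.48 ± 0.17 on the log2 scale (standard error, adjusted p = 0.0113). Without KO 1 or KO 3 its adjusted p was 0.0590 and 0.0652. Directions below are therefore those that the labels give. The tissue was fast muscle in every library, by 6 fast-fiber markers of which 0 passed the test. They summed to 120746, 127884 and 202547 CPM in WT 1, 2 and 3. In the KO-labelled libraries 1, 2 and 3 they summed to 186508, 187364 and 213312 CPM, so WT 3 lay among these. Of the 6, 5 had higher means in the KO-labelled libraries and 1 a lower mean (median log2 fold change 0.44). The 6 slow-fiber markers ranged from 52.3 to 2547 CPM in WT and from 192 to 1542 CPM in the KO-labelled libraries, and were highest in WT 1, WT 2 and KO 2. All 6 had lower means in the KO-labelled libraries (median log2 fold change -1.23), with overlapping groups and 0 past the test. Among 4 markers each of adipocytes, endothelium, macrophages, Schwann cells, fibroblasts and red cells, 1 passed (a Schwann cell marker, lower). The summed Schwann markers were at 25.7 to 69.1 CPM in WT and 24.3 to 35.03 CPM in the other group. Both satellite cell markers, *Pax7* and *Myf5*, rose, their sum lying between 1.59 and 2.21 CPM in WT and between 3.78 and 5.45 CPM in the KO-labelled libraries. The part of these markers in the results was not tested, except that slow-fiber content was fitted as a covariate. In whole muscle, fewer cells of a type and less RNA per cell cannot be told apart.

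Promoter sequence is shown for *Trim63*, the most lowered of the 10 genes, for its paralog *Trim54*, which did not fall, and for *Foxo1*. The bases just after the start matched a GENCODE M21 transcript of the gene for *Trim63* and *Foxo1*, but not for *Trim54*. Each run is the 250 bases before the RefSeq start of the gene on GRCm38 (mm10), read in the direction of transcription, and the plus strand is the coding strand in all of them. Capitals mark matches on either strand to the FoxO core GTAAACA or to AGAACA, the hexamer bound by the glucocorticoid receptor.

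Trim63 (chr4:134314870-134315119): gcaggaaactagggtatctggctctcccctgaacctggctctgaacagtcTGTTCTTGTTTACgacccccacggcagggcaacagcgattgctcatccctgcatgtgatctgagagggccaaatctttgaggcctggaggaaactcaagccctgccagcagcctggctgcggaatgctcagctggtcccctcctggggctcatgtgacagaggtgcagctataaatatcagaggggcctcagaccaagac

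Trim54 (chr5:31116362-31116611): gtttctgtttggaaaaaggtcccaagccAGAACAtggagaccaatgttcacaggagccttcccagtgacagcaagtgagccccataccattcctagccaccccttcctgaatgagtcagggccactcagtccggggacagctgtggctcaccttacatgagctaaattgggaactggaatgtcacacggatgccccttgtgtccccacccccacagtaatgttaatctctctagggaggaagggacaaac

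Foxo1 (chr3:52268087-52268336): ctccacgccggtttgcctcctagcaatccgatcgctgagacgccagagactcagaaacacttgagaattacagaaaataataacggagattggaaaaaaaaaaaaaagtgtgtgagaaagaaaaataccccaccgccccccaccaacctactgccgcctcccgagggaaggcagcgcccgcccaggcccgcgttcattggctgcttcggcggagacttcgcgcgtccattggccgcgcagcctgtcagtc

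Of the 10 genes, 7 had a promoter in the RefSeq table (*Foxo1*, *Foxo3*, *Trim63*, *Trim54*, *Fbxo30*, *Fbxo31* and *Fbxo21*). That of *Fbxo30* (11281337 to 11281586) lies within the gene limits given below, and that of *Fbxo31* (121578807 to 121579056) reaches into them. For *Fbxo21*, as for *Trim54*, the bases just after the start matched no GENCODE M21 transcript of the gene. The FoxO core was found in 1 of these 7, *Trim63*, and in 3.17% of the 32851 promoters of the table. In *Trim63* it lies on the minus strand from base -194 to base -188 before the start, directly beside a glucocorticoid receptor hexamer on the minus strand at -200 to -195, and the 2 matches do not overlap. The hexamer was found in 2 of the 7 (*Trim63* and *Trim54*, in the latter on the plus strand at -222 to -217) and in 16.1% of all promoters. The insulin response type of FoxO site, CAAAACA, and the full cAMP response element, TGACGTCA, were found in 0 of the 7, and in 5.56% and 1.55% of all promoters. The shorter TGACG was found in 1 of the 7, *Foxo3*, at -64 to -60 (17.8% of all promoters). The *Trim63* promoter also holds TATAAA at -31 to -26 (1 of the 7, 12.4% of all). These matches are letters in a window of 250 bases and not measured binding sites.

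*Foxo1* was the FoxO gene that passed the threshold. Whether its change differed from those of the other FoxO genes is addressed by the ratios below. Its gene (NCBI gene 56458) lies on the plus strand of chromosome 3 of GRCm38, between 52268337 and 52350109. It was at 102, 184 and 72.9 CPM in WT 1, 2 and 3, and 30.9, 37.2 and 57.7 CPM in the KO-labelled libraries 1, 2 and 3. Every KO-labelled library lay below every WT library, although KO 3 came near WT 3. The mean fell from 120 ± 57.6 to 41.9 ± 14.0 CPM (SD, n = 3 each), or -1.51 ± 0.37 on the log2 scale (standard error, 95% interval -2.38 to -0.64, adjusted p = 0.0358 from edgeR), or 2.85-fold lower. The call held in 1 of the 6 fits that left out a library, the one without WT 3 (0.0126). Without WT 1, WT 2, KO 1, KO 2 or KO 3 the adjusted p was 0.0851, 0.0835, 0.120, 0.0951 and 0.0800, with log2 fold changes over all 6 fits between -1.81 and -1.06. With the trend over GC content removed the log2 fold change was -1.50 and the adjusted p 0.0551.

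*Foxo3* and *Foxo4* overlapped between the groups. *Foxo3* (gene 56484, minus strand of chromosome 10, 42181845 to 42276695), the FoxO factor first linked to atrogin-1, was at 9.70, 13.4 and 11.3 CPM in WT and at 8.63, 10.05 and 12.5 CPM in the KO-labelled libraries. Its log2 fold change was -0.14 (95% interval -0.57 to 0.29, adjusted p = 0.612). *Foxo4* (gene 54601, plus strand of chromosome X, 101254261 to 101260873) was at 182, 175 and 194 CPM in WT and at 191, 175 and 180 CPM in the other group. It was among the steadiest of the 10 genes, with a log2 fold change of -0.01 (95% interval -0.26 to 0.23, adjusted p = 0.935). *Foxo6*, the remaining member of the family, was at 4.70 ± 1.71 and 3.69 ± 1.05 CPM (SD, n = 3 each), -0.35 on the log2 scale (adjusted p = 0.498).

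Per length, *Foxo4* was the main FoxO mRNA of this muscle. It was at 127 ± 9.83 TPM (deposited values scaled to length, SD, n = 3) in WT, *Foxo1* was at 48.0 ± 24.9 TPM and *Foxo3* at 8.69 ± 1.56 TPM, and the libraries of each did not overlap with those of the next. The same order held in the KO-labelled libraries, at 116 ± 8.60, 15.2 ± 4.76 and 7.25 ± 1.19 TPM. *Foxo1* made up 22.6%, 34.7% and 16.5% of the summed FoxO TPM in WT 1, 2 and 3, and 7.88%, 9.95% and 14.3% in the KO-labelled libraries. The ratio of *Foxo1* to *Foxo3* within a library was 5.46, 7.14 and 3.35 in WT and 1.86, 1.93 and 2.41 in the other group, a difference of -1.31 on the log2 scale (exact permutation test, p = 0.1, adjusted over 5 ratios p = 0.125). The ratio of *Foxo1* to *Foxo4* was 0.319, 0.598 and 0.213 against 0.0922, 0.121 and 0.183 (log2 difference -1.44, exact permutation p = 0.1, adjusted p = 0.125). For 3 animals against 3, 0.1 is the smallest two-sided p that this test allows, so that no ratio could pass 0.05. A ratio within a library does not depend on how libraries are scaled to each other.

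**Figure D1:**
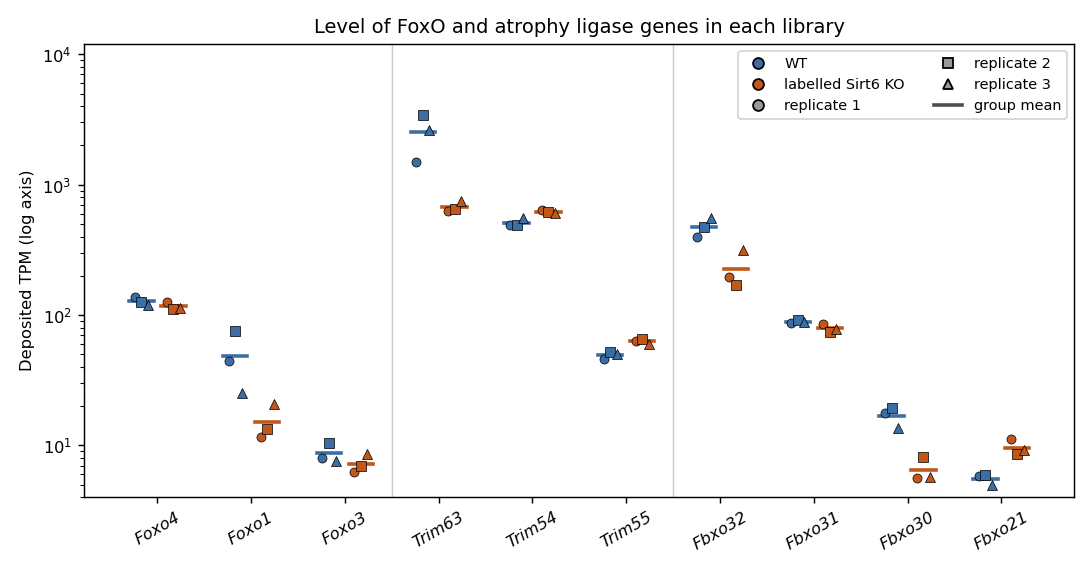
Deposited TPM of each gene (log axis) in the 3 WT libraries (blue) and the 3 KO-labelled libraries (orange), with marker shapes for replicates 1 to 3 and bars for group means; vertical lines separate FoxO factors, MuRF genes and F-box genes. *Trim63* spans 1499 to 3453 TPM in WT and 624 to 756 TPM in the KO-labelled libraries, whereas *Foxo4* and *Fbxo31* keep nearly the same level.

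*Trim63* fell the most of the 10 genes. The gene (433766) lies on the plus strand of chromosome 4, from 134315120 to 134329629, and encodes MuRF1, which adds ubiquitin to proteins of the thick filament. It was at 1177, 2886 and 2551 CPM in WT 1, 2 and 3 and at 561, 612 and 719 CPM in the KO-labelled libraries. The groups did not overlap, and the WT libraries were spread much wider than the others, with WT 1 the nearest to them. The mean was 2205 ± 906 CPM against 631 ± 80.4 CPM (SD, n = 3 each), or -1.81 ± 0.33 on the log2 scale (standard error, 95% interval -2.57 to -1.04, adjusted p = 0.0181 from edgeR), or 3.50-fold lower. With 1 library left out, the log2 fold change lay between -2.10 and -1.56. The adjusted p was 0.0358 without WT 1 and 0.0164 without WT 3, but 0.0587 without WT 2 and 0.0743, 0.0553 and 0.0789 without KO 1, 2 or 3. Among 68 *Trim* genes of the table *Trim63* had the highest mean TPM, and by place among all genes it moved from 38 in WT to 158 in the KO-labelled libraries.

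The other MuRF genes had higher, not lower, means in the KO-labelled libraries. *Trim54* (gene 58522, plus strand of chromosome 5, 31116612 to 31137626) was at 313, 331 and 437 CPM in WT and at 465, 474 and 465 CPM in the KO-labelled libraries, with WT 3 close to the latter. *Trim55* (gene 381485, plus strand of chromosome 3, 19644344 to 19692584) was at 34.4, 41.4 and 46.5 CPM against 54.0, 59.1 and 54.4 CPM. In both genes every KO-labelled library lay above every WT library, but neither passed the threshold over all genes. The log2 fold change of *Trim54* was 0.38 ± 0.15 (SE of the fit, 95% interval 0.01 to 0.74, adjusted p = 0.131 from edgeR) and that of *Trim55* was 0.45 ± 0.13 (SE of the fit, 95% interval 0.15 to 0.76, adjusted p = 0.0538). Without WT 3 both passed, with log2 fold changes of 0.54 and 0.56 and adjusted p of 0.00902 and 0.0146. *Trim55* also passed in DESeq2 (0.0168) and in limma on log2(FPKM + 1) (0.0217), and *Trim54* in neither (0.0639 and 0.0773). With the trend over GC content removed, the log2 fold change of *Trim54*, whose transcript has a GC content of 59.9% against a median of 49.8% for the genes tested, was 0.12.

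The shares of *Trim63* and *Trim54* in the MuRF mRNA lay apart between the groups in all 6 libraries, a description without a test. *Trim63* was 73.6%, 86.5% and 81.3% of the summed TPM of the 3 MuRF genes in WT 1, 2 and 3, and 47.1%, 48.6% and 53.3% in the KO-labelled libraries. *Trim54* made up 24.1%, 12.2% and 17.1% in WT and 48.1%, 46.4% and 42.4% in the other group. In WT every library had more *Trim63* than any had *Trim54* (2521 ± 980 against 510 ± 35.4 TPM, SD, n = 3), whereas in the KO-labelled libraries the 2 genes overlapped, at 675 ± 70.5 and 618 ± 17.6 TPM. The ratio of *Trim63* to *Trim54* was 3.05, 7.07 and 4.74 in WT and 0.981, 1.05 and 1.26 in the KO-labelled libraries (log2 difference -2.10, exact permutation p = 0.1, adjusted over 5 ratios p = 0.125). The ratio of *Trim63* to *Trim55* was 32.4, 66.1 and 52.0 against 9.86, 9.81 and 12.5 (log2 difference -2.17, exact permutation p = 0.1, adjusted p = 0.125). Leaving out any of the 6 libraries kept these differences between -2.41 and -1.80 and between -2.46 and -1.94.

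**Figure D2:**
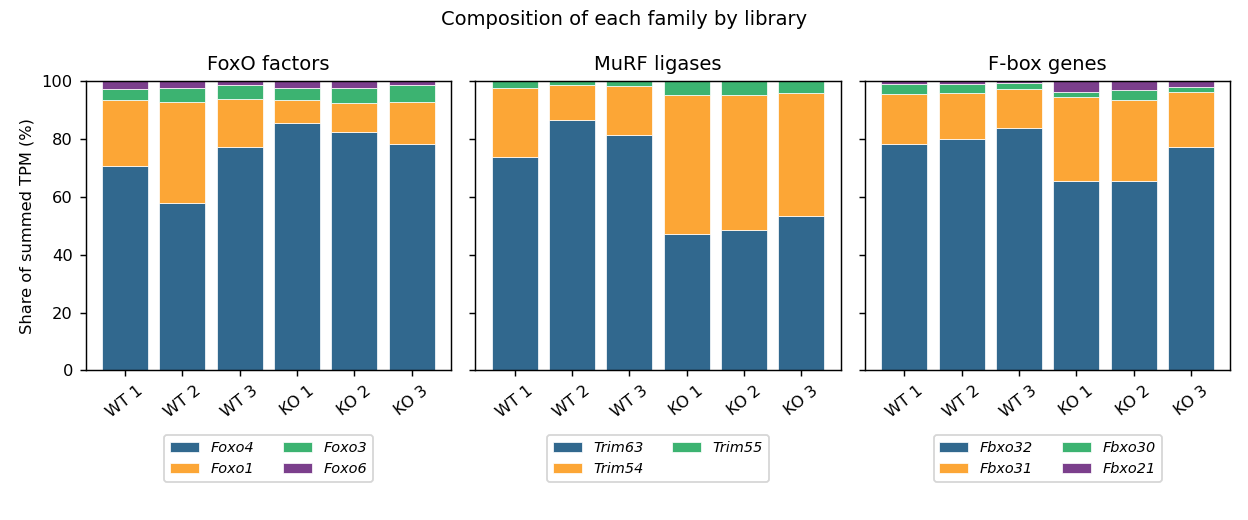
Share of the summed TPM that each gene takes among the FoxO factors (left), the 3 MuRF genes (middle) and the 4 F-box genes (right), as stacked bars for each library; KO 1 to 3 are the KO-labelled libraries. *Trim63* fills 73.6% to 86.5% of the MuRF bars in WT and 47.1% to 53.3% in the KO-labelled libraries.

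Among the F-box genes, *Fbxo32* had the lower mean in the KO-labelled libraries but did not pass the threshold. Its gene (67731) lies on the minus strand of chromosome 15, from 58175879 to 58214892, and atrogin-1, its product, targets the initiation factor subunit eIF3f and MyoD. It was at 1148, 1443 and 2008 CPM in WT 1, 2 and 3 and at 642, 596 and 1102 CPM in the KO-labelled libraries. The groups did not overlap, but KO 3 and WT 1 nearly met. The means were 1533 ± 437 and 780 ± 280 CPM (SD, n = 3 each), or -0.97 ± 0.30 on the log2 scale (standard error, 95% interval -1.68 to -0.27, adjusted p = 0.0664 from edgeR). DESeq2 called it lower (adjusted p = 0.00637), as did the fit with slow-fiber content as a covariate (0.0189), and 0 of the 6 fits that left out a library did, with adjusted p between 0.0789 and 0.194. *Fbxo32* had the highest mean TPM of the 37 *Fbxo* genes in the table. The ratio of *Trim63* to *Fbxo32*, both taken as marks of atrophy, was 3.77, 7.36 and 4.67 in WT and 3.21, 3.78 and 2.40 in the other group, and overlapped (log2 difference -0.72, exact permutation p = 0.2, adjusted p = 0.2).

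*Fbxo30* fell and *Fbxo21* rose. *Fbxo30* (gene 71865, plus strand of chromosome 10, 11281330 to 11305750) was at 36.9, 42.5 and 35.0 CPM in WT and at 13.2, 20.4 and 14.5 CPM in the KO-labelled libraries, well apart in all 6. Its mean went from 38.1 ± 3.91 to 16.0 ± 3.83 CPM (SD, n = 3 each), or -1.25 ± 0.18 on the log2 scale (standard error, 95% interval -1.67 to -0.83, adjusted p = 0.0132 from edgeR). It was the most lowered of the 29 *Fbxo* genes tested. Its transcript has the lowest GC content of the 10 genes, 38.2%, and with the trend over GC content removed the log2 fold change was -0.88 (adjusted p = 0.0402). *Fbxo21* (gene 231670, plus strand of chromosome 5, 117976770 to 118010198) was at 9.40, 10.3 and 9.96 CPM in WT and at 20.6, 16.8 and 18.0 CPM in the KO-labelled libraries. It had the smallest adjusted p of the 10 genes, and its WT libraries were nearly level. Its mean went from 9.88 ± 0.438 to 18.5 ± 1.98 CPM (SD, n = 3 each), or 0.90 ± 0.12 on the log2 scale (standard error, 95% interval 0.62 to 1.19, adjusted p = 0.0131), or 1.87-fold higher. Both genes lost the call without KO 1 (adjusted p = 0.0591 for *Fbxo30* and 0.0590 for *Fbxo21*) and without KO 3 (0.0695 and 0.0691), and kept it in the other 4 such fits. *Fbxo31* (gene 76454, minus strand of chromosome 8, 121549443 to 121578864), which encodes an F-box protein known for breaking down cyclin D1, overlapped between the groups at 157, 177 and 200 CPM against 177, 162 and 173 CPM (log2 fold change -0.06, 95% interval -0.35 to 0.23, adjusted p = 0.755).

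**Figure D3:**
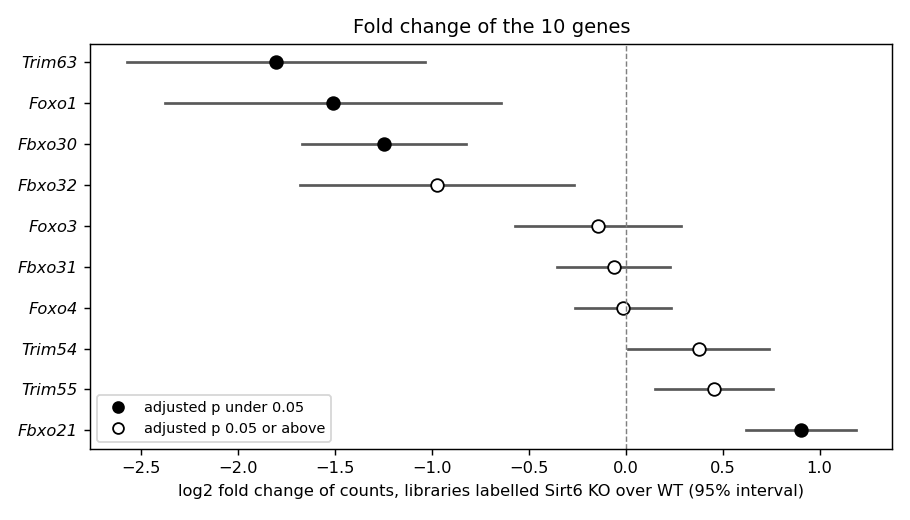
Log2 fold change of the counts of each gene, KO-labelled libraries over WT, from edgeR with its 95% interval as a bar; filled points have an adjusted p under 0.05 over all genes tested. The filled points are *Trim63* at -1.81, *Foxo1* at -1.51, *Fbxo30* at -1.25 and *Fbxo21* at 0.90, and the intervals of *Foxo3*, *Foxo4* and *Fbxo31* hold 0.

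The calls rested on particular libraries, as did those over all genes. Without KO 1, edgeR called 0 of the 10 genes (3 lower and 2 higher at an unadjusted p under 0.05) and 8 of all genes tested were left (2 lower, 6 higher). Without KO 3 it also called 0 (4 lower and 2 higher at an unadjusted p under 0.05), with 5 lower and 8 higher over all genes. Without WT 2 or KO 2, *Fbxo30* alone fell and *Fbxo21* alone rose. Without WT 3, on the other hand, 3 were lower and 3 higher, and 2235 and 2350 of all genes. No fit turned the direction of the 7 genes whose groups did not overlap. By position, antisense transcripts of GENCODE M21 share 7.78% of the exonic bases of *Foxo1* (*Gm20402*), 26.6% of those of *Trim54* (*Gm15469*) and 2.67% of those of *Fbxo32* (*Gm15943*). The sources used here do not say whether the counting kept the strands apart, so reads of these partners cannot be told from those of the 3 genes.

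**Figure D4:**
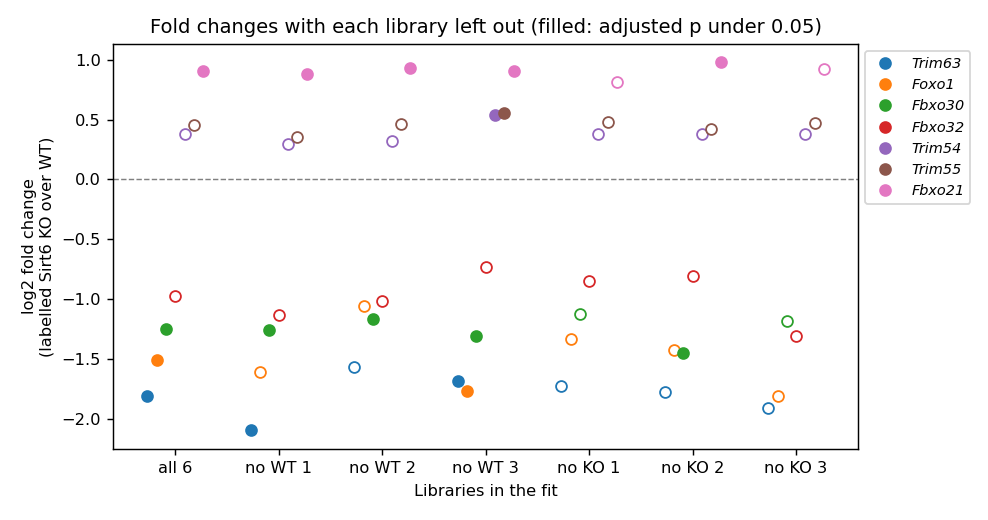
Log2 fold change (KO-labelled libraries over WT) of the 7 genes whose groups did not overlap, fitted with all 6 libraries and with each left out in turn; filled points have an adjusted p under 0.05. The points stay on the same side of 0 in all fits, and without KO 1 or KO 3 none is filled.

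The 10 genes varied in different directions. On the scale of log2 CPM over the 6 libraries, Pearson's r was 0.95 between *Trim54* and *Trim55*, 0.89 between *Trim63* and *Fbxo32*, 0.84 between *Trim63* and *Foxo1*, and -0.97 between *Fbxo30* and *Fbxo21*. These values describe 6 libraries in 2 groups, so a difference between the groups enters each of them. The genes with the pattern most like that of *Foxo1* over the 6 libraries were *Rph3al* (r = 0.994), *Jmjd1c* (0.991) and *L1cam* (0.991), of 11624 genes compared. Those most like *Trim63* were *Cutc* (r = 0.997), *Paip2* (0.996) and *Rnf214* (0.995), and those most like *Fbxo32* were *Glcci1* (r = 0.996), *Srek1* (0.987) and *Dctn4* (0.987). None of the 10 genes was among them. Pearson's r takes no account of the size of a change, and these genes were picked as the highest of 11624. In the order named, their log2 fold changes were -0.23, -0.86 and -0.92 for *Foxo1*. They were -0.25, -0.19 and -0.15 for *Trim63*, and -1.73, -0.23 and -0.22 for *Fbxo32*.

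The pathway around these genes was followed in 6 further lists with 112 genes tested. Of these, 16 fell (14.3%) and 6 rose (5.36%), against 8.39% and 7.85% of all genes tested, and the median log2 fold change was -0.19. Without KO 1 or without KO 3 edgeR called 0 of them, with 26 lower and 7 higher, and 23 lower and 7 higher, at an unadjusted p under 0.05. With the trend over GC content removed 8 fell and 3 rose. Over all genes tested, 1158 lower and 1084 higher became 488 and 474 in that fit.

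Of 20 genes of signalling upstream of FoxO, 4 fell (8.39% over all genes) and 0 rose (7.85%). The median log2 fold change was -0.27. *Irs2*, a docking protein of the insulin receptor that FoxO factors themselves switch on, was at 122, 117 and 37.7 CPM in WT and at 6.32, 19.4 and 15.1 CPM in the KO-labelled libraries. Its WT libraries were uneven but all above the others, and the log2 fold change was -2.76 ± 0.55 (SE of the fit, adjusted p = 0.0214 from edgeR). *Nr3c1*, the glucocorticoid receptor, was at 176, 194 and 195 CPM against 99.4, 94.5 and 93.9 CPM, tight within each group, or -0.97 ± 0.10 on the log2 scale (standard error, adjusted p = 0.0110). *Akt1* and *Akt2*, the main Akt kinases of muscle, were at log2 fold changes of 0.22 and -0.03 (adjusted p = 0.159 and 0.937), *Insr* at -0.37 (0.0575) and *Irs1* at -1.10 (0.0547).

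Of 16 genes whose products modify or carry FoxO proteins, 1 fell (8.39% over all genes) and 0 rose (7.85%), with a median of -0.06. It was *Sirt1*, a deacetylase of FoxO factors, at 17.7, 17.5 and 19.0 CPM in WT and 9.54, 10.1 and 12.5 CPM in the KO-labelled libraries (-0.75 ± 0.14, log2 fold change with SE, adjusted p = 0.0178 from edgeR), and at -0.56 with the trend over GC content removed (0.0531). The acetyltransferase gene *Ep300* was at -0.27 (adjusted p = 0.120) and *Kat2b* at -0.49 (0.0528).

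Of 31 other FoxO targets and atrophy genes, 8 fell (8.39% over all genes) and 1 rose (7.85%), with a median of -0.26. The largest decreases were those of the metallothioneins *Mt1* and *Mt2*, which bind metals, and of *Cdkn1a*, a cell-cycle inhibitor. *Mt1* was at 45.9, 98.6 and 50.8 CPM in WT and at 5.98, 17.8 and 8.88 CPM in the KO-labelled libraries (log2 fold change -2.58, adjusted p = 0.0174 from edgeR). *Mt2* fell by 2.24 on the log2 scale (adjusted p = 0.0168) and *Cdkn1a* by 1.22 (0.0315). *Ubb*, a polyubiquitin gene, was the member that rose, from 259 ± 35.0 to 438 ± 17.5 CPM (SD, n = 3 each), 0.76 on the log2 scale (adjusted p = 0.0178). Of the autophagy genes, named after their values were seen, *Bnip3* passed and was lower, at 330, 386 and 432 CPM in WT against 149, 241 and 182 CPM (-1.005 on the log2 scale, adjusted p = 0.0218). *Map1lc3a* was at 0.45 with no overlap between the groups (0.0630), *Map1lc3b* at -0.02 (0.932) and *Gabarapl1* at -0.92 (0.109), and *Gadd45a*, another atrophy gene, at 0.06 (0.930).

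The SCF complex, whose core *Fbxo32*, *Fbxo30*, *Fbxo31* and *Fbxo21* share, was followed together with conjugating enzymes and regulators that act with it. Of these 12 genes, 1 was lower (8.39% over all genes) and 0 higher (7.85%), with a median of 0.05. The 1 called encodes a conjugating enzyme and not a subunit of the core. *Ube2d3*, a ubiquitin-conjugating enzyme, fell from 322 ± 32.9 to 200 ± 15.6 CPM (SD, n = 3 each), -0.68 on the log2 scale (adjusted p = 0.0192 from edgeR), but with the trend over GC content removed it was at -0.30 and lost the call (0.163). *Cul1*, *Skp1a* and *Rbx1* were at -0.18, 0.06 and 0.03 (adjusted p = 0.338, 0.748 and 0.866). Among 22 other ubiquitin ligase genes of muscle, 2 fell (8.39% over all genes) and 4 rose (7.85%), with a median of 0.17. *Fbxo40*, which encodes a muscle F-box protein that targets IRS1, rose from 162, 140 and 244 CPM in WT to 394, 341 and 391 CPM in the KO-labelled libraries (1.04 ± 0.21, log2 fold change with SE, adjusted p = 0.0229). *Mib1*, a ligase of Notch signalling, rose by 1.32 on the log2 scale (adjusted p = 0.0266), and its KO-labelled libraries were uneven at 54.2, 22.5 and 35.7 CPM. *Fbxl22*, a low gene at 1.03 to 1.62 CPM in WT and 2.00 to 4.14 CPM in the other group, rose by 1.20 (0.0483). *Smurf2* and *Siah1a* fell by 0.55 and 0.51 (adjusted p = 0.0363 and 0.0265). With the trend over GC content removed *Smurf2* was at -0.46 (0.0746), *Siah1a* at -0.28 (0.147) and *Fbxl22* at 1.12 (0.0757), and all of them lost the call. *Trim32*, named because the count is small, was the fourth that rose (0.68, 0.0388).

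Of 11 genes whose products these ligases are known to bind or ubiquitinate, 0 fell (8.39% over all genes) and 1 rose (7.85%). The median was -0.07. *Eif3f*, which encodes the substrate of atrogin-1, was at 90.9, 90.0 and 135 CPM in WT and at 182, 152 and 177 CPM in the KO-labelled libraries (0.70 ± 0.18, log2 fold change with SE, adjusted p = 0.0424 from edgeR), and at 0.66 with the trend over GC content removed (0.0667). *Myod1* was at 0.33 (adjusted p = 0.677), *Ckm* at 0.55 (0.194) and *Ttn*, which encodes titin, at -0.28 (0.387).

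**Figure D5:**
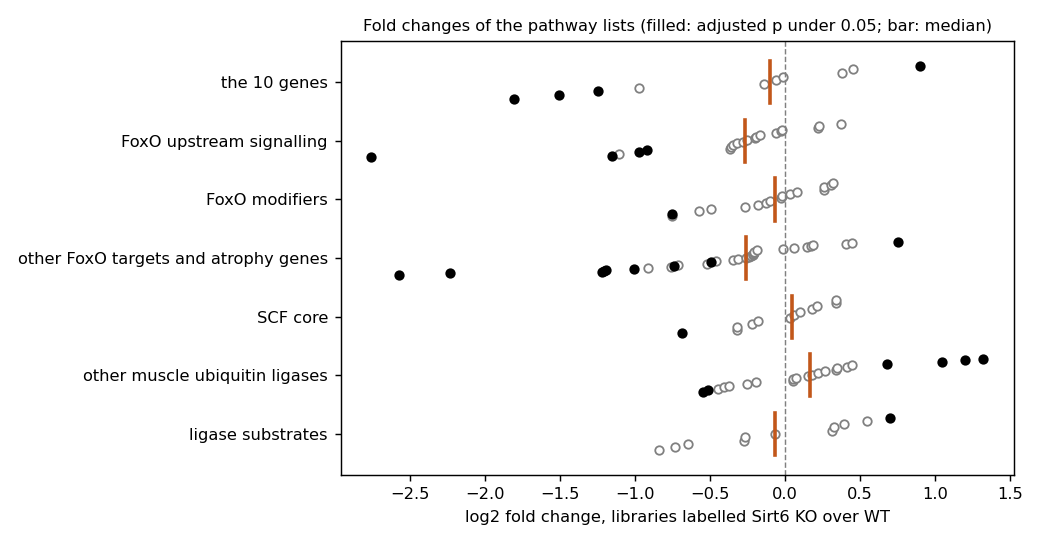
Log2 fold change (KO-labelled libraries over WT) of each gene tested in the 10 genes and in 6 lists of the pathway, with 1 point per gene spread vertically by rank, filled where the adjusted p is under 0.05, and an orange bar at the median of the list. The medians lie between -0.27 (upstream signalling) and 0.17 (other ubiquitin ligases), and the filled points of the FoxO targets lie below 0 except *Ubb* at 0.76.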

How the data were processed

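Poly-A RNA of 6 GAS muscles was sequenced with paired-end reads. The submitters' processing notes name HISAT2 2.1.0, Bowtie2 2.3.4.1 and StringTie 2.1.3b on mm10, the study's reporting summary another aligner, and the labels and methods different library kits. For each gene the authors deposited whole-number counts, unscaled between libraries. They also deposited FPKM, which divides by length and library size, and TPM, deposited with 1 fixed sum in every library.

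Counts were tested in R 4.3.3 with edgeR 4.0.16 (filterByExpr, TMM, quasi-likelihood test of the group, Benjamini-Hochberg adjustment over 13801 genes, threshold 0.05). CPM is TMM-scaled, and 1 count was worth 0.0165 to 0.0212 CPM. Standard errors and 95% intervals derive from the test. Levels of different genes were compared in TPM. Two-sided exact permutation tests compared log2 TPM ratios. The edgeR p-values set a difference against the spread between 3 animals a group, estimated with information shared across genes. The permutation p-values come from regrouping the libraries.

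Alternatives were DESeq2 1.42.0, its size factors, other filters on low values, limma 3.58.1 after quantile normalization of log2 FPKM with a pseudocount of 1 or 0.1, a replicate block, a correction for GC content (lowess, span 0.3; GC known for 13715 genes, 99.4%), slow-fiber markers as a covariate, and each library left out. Promoters and positions are from RefSeq on GRCm38.p6.

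The genes named are the 10 genes, *Sirt6*, and from each list at most the 3 largest increases and decreases among the genes called, plus, chosen after their values were seen, well-known list members given by value and the markers. For *Foxo1*, *Trim63* and *Fbxo32* the 3 genes with the highest Pearson r at a mean of at least 1 CPM are named. The 10 genes, the lists and the tests were chosen with earlier results of these data known. Places within the *Trim* and *Fbxo* symbols and shares of family TPM were chosen once the data had been seen. Some genes that the rule selects are not reported here.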

Additional observations from a re-analysis of the deposited data

How the results depend on the processing

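Of the 110 values that the 11 alternatives gave for the 10 genes, 95 kept direction and side of the threshold, 3 lost the call and 10 gained it. The other two reversed: *Foxo4* was at 0.0479 in limma on log2(FPKM + 1) and at 0.0488 on log2(FPKM + 0.1). The calls of *Trim63*, *Fbxo30* and *Fbxo21* held in all 11. *Foxo1* lost its call with the replicate block (0.0631), with the GC correction (0.0551) and with both (0.0855). The count of higher genes among the 10, 1 in the main analysis, was 2 in DESeq2, with at least 10 counts in every library, with FPKM above 1 and in limma with either pseudocount (*Trim55* added), and 3 with slow-fiber markers as a covariate (*Trim55* and *Trim54* added). Among the 112 pathway genes, 16 lower and 6 higher became 27 lower in DESeq2, 3 higher without a filter, 8 lower and 3 higher with the GC correction, 9 lower and 2 higher with the replicate block and the GC correction, and 28 lower and 14 higher with the slow-fiber covariate. Over all genes, 1158 lower and 1084 higher became 1801 and 1730 in DESeq2, 488 and 474 with the GC correction, 316 and 242 with block and GC correction, and 2092 and 2056 with the slow-fiber covariate; the cause was not tested.

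With 1 library left out, the genes of the 10 that were called numbered 0 to 3 lower and 0 to 3 higher, the pathway genes 0 to 28 lower and 0 to 16 higher, and all genes 2 to 2235 lower and 6 to 2350 higher. *Foxo4* lay between -0.0493 and 0.0281 and *Fbxo31* between -0.133 and 0.0287 in these fits, with *Foxo4* above 0 without WT 3 or KO 2 and *Fbxo31* without WT 3. The 15 pathway genes chosen by rule kept their direction in all fits. Their call was lost in 20 of 164 values from the alternatives, and in 64 of 90 values with 1 library left out.

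The labels number the replicates without saying that equal numbers are paired. The deviations of same-numbered libraries correlated at -0.11, 0.35 and 0.26, and those of unlike-numbered libraries at between -0.42 and 0.27. Deviations from a mean of 3 libraries depend on each other, so these values cannot decide whether the samples are paired. With the replicate block alone, 1018 genes were lower and 904 higher, and *Fbxo32* passed (0.0277). A count of 469 or more stood behind every level of the 10 genes, and the common biological coefficient of variation between libraries was 24.1%.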
